A study of Homo sapiens with 6 samples.

Results

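The 40 genes described here act in the interferon and double-stranded RNA response. They were chosen by name, as the rows of the gene tables whose Ensembl identifier belongs to a fixed list of symbols, and all 40 were found among the 60671 genes of each table. The question was whether pools of siRNAs against FOXL2, a forkhead transcription factor of granulosa cells, differed from a control siRNA, or from each other, in these genes. KGN is a human granulosa tumour cell line, and the cells used had been genome-edited so that both copies of FOXL2 are wild type (genotype label FOXL2 WT/WT). There were 6 RNA-seq libraries, 3 from cells given FOXL2 siRNA (pools 1, 2 and 3, with 1 library per pool) and 3 from cells given a non-targeting control siRNA, all at 30 pmol and harvested 30 h after transfection. Each FOXL2 pool held 3 siRNAs from a shared set, and each pool lacked a different one. Every library therefore comes from cells transfected with double-stranded RNA. Untransfected cells were not analysed here, so a response common to all siRNAs could not be measured. The 3 pools were separate transfections, but the sources used here do not say whether the control libraries came from separate cultures, and the p-values below measure the spread between these libraries only.

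Cells detect double-stranded RNA in endosomes through TLR3 and in the cytosol through RIG-I (RIGI), MDA5 (IFIH1), the kinase PKR (EIF2AK2) and the OAS enzymes. RIG-I and MDA5 signal through MAVS to IRF3 and IRF7, which switch on interferon beta (IFNB1). Secreted interferon then acts through JAK kinases and a complex that holds IRF9 on promoters that carry an interferon-stimulated response element, and the genes induced there include antiviral effectors as well as more sensors. Small interfering RNAs are themselves short double-stranded RNAs, and some induce this response.

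The core of the response element, GAAANNGAAA, was sought in the promoters of these genes. RefSeq promoters (GRCh38.p14, from 250 bases before to 50 after each start site) were at hand for 33 of the 40 genes, and 22 of the 33 held the core on either strand in at least 1 promoter (66.7%), against 4.38% of 27305 genes with a promoter. Counted by promoter, 26 of 42 held it (61.9%), against 3.57% of all 35116 promoters of that length. Among the further pathway genes described below, 24 of 64 genes with a promoter held it (37.5%), and 25 of 91 promoters (27.5%). A match is a description of the letters and not evidence of binding. The stretches before the start site are shown for 6 of the genes named below, 5′ to 3′ on the strand of the gene, with each core in capitals (TTTC, any 2 bases and TTTC where it lies on the other strand). ISG20 lies at chr15:88638902-88639001, HERC5 at chr4:88456949-88457099, IFIT5 at chr10:89414478-89414567, IFIT3 at chr10:89327796-89327929, IFI44L at chr1:78620239-78620429 and ISG15 at chr1:1013339-1013444, all 6 on the plus strand.
ISG20: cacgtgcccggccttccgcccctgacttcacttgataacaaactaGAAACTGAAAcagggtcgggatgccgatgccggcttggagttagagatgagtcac
HERC5: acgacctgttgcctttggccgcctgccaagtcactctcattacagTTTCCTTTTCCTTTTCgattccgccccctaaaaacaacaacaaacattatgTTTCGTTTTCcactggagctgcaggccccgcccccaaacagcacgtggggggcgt
IFIT5: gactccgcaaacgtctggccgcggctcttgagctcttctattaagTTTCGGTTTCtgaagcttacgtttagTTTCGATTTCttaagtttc
IFIT3: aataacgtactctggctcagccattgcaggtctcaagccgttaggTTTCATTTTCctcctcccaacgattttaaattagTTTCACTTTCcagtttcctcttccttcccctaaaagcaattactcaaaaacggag
IFI44L: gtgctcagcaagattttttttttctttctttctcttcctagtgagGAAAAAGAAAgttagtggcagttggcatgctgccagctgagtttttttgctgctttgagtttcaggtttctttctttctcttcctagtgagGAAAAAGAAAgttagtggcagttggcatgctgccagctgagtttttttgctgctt
ISG15: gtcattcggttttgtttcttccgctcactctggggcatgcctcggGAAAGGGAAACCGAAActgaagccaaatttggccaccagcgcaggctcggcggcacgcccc
The stretch of ISG20 holds 1 core and that of HERC5 holds 3, of which 2 overlap. The other 4 hold 2 each, which overlap in ISG15. In IFIT5, 1 more core spans the start site and lies partly outside the stretch.

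FOXL2, the target of the siRNAs, was reduced in all 3 pools. Its level was 9.88, 9.71 and 10.8 CPM (counts scaled to library size, after TMM normalization) in control replicates 1 to 3 and 2.64, 3.31 and 2.36 in pools 1 to 3, so that the groups were far apart. The log2 fold change was -1.88 (SE 0.14, edgeR adjusted p = 0.00267), and the libraries fit their labels. The 6 libraries held 23843192 to 28791954 expected counts. Pool 2 stood apart from the other libraries before any of the 40 genes was considered: the first principal component, with 31.2% of the variance, gave it a score of 40.9, and the next most distant library, control replicate 3, a score of -17.2. The counts of the comparison between the groups, and those between the pools by test, are therefore also given without it.

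The ligands of the response were not expressed. IFNB1 had 1 expected count in control replicate 2 and 0 in the other 5 libraries. CXCL10, a chemokine induced by interferons, had 0 counts in all 6 libraries, which allows up to 3 counts in each, or 0.104 to 0.126 CPM by library. BST2 (tetherin, which holds budding virions at the cell surface) had between 1 and 4 counts. These 3 genes did not pass the filter on low counts, and the other 37 did.

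The levels of the remaining genes differed widely (TPM, which is scaled for transcript length as well as library size, is used to compare genes). The summed TPM of the 40 genes was 793, 807 and 758 in the control libraries and 756, 796 and 801 in pools 1 to 3, that is 786 ± 25.1 and 784 ± 24.8 (SD, n = 3 each). These sums overlapped. IFI27, a small membrane protein strongly induced by type I interferon, made up 26.6% of the sum, with 200.2, 215 and 193 TPM in the control libraries and 213, 207 and 226 in the pools. The next most abundant were ADAR, which edits adenosine to inosine in double-stranded RNA (73.0 TPM over all 6 libraries), ISG15, a ubiquitin-like modifier (68.0 TPM), and IRF3 (50.025 TPM). Among the sensors, EIF2AK2 was the highest at 26.9 TPM and OASL, a catalytically inactive relative of the OAS enzymes, the lowest at 0.49. MX1 and MX2, interferon-induced GTPases, were at 1.16 and 0.397 TPM.

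**Figure D1:**
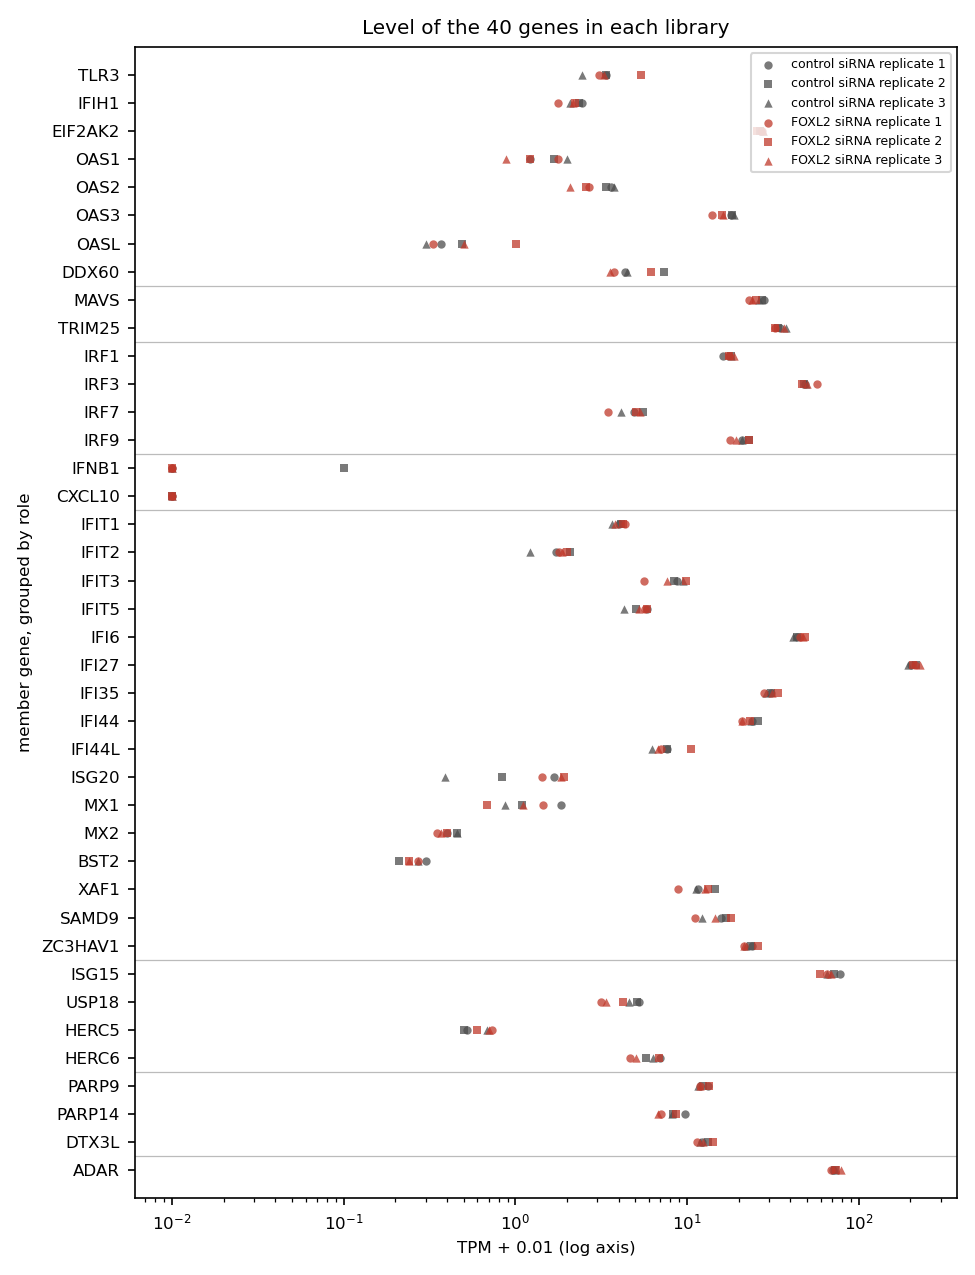
TPM of each of the 40 genes (rows, grouped by role) in the 3 control siRNA libraries (grey) and the 3 FOXL2 siRNA libraries (red), with 0.01 added and a log axis; the marker gives the replicate or pool number. IFI27 is the highest gene, CXCL10 is at 0 in every library, and for most genes the 6 points lie close together.

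None of the 37 tested genes differed between FOXL2 siRNA and control siRNA by edgeR's quasi-likelihood test at an adjusted p below 0.05, where 0.255% of all 15663 genes passed. DESeq2 also called 0 of them (2.13% of all genes), with 4 at an unadjusted p below 0.05 (10.9%). At an unadjusted p below 0.05, 4 passed (13.5% of all genes), all 4 lower with FOXL2 siRNA (6.88% of all genes were lower at that threshold). In bulk RNA, fewer cells that express a gene and less of its RNA per cell cannot be told apart. In 5 of the 37 the groups did not overlap (20.5% of all genes), 4 of them lower with FOXL2 siRNA (10.6%). The log2 fold changes lay between -0.72 and 0.34 with a median of -0.02 (0.01 for all genes tested), which was -0.07 without pool 2 and 0.01 without control replicate 1. They were below 0 for 23 of the 37 genes and above 0 for 14, while 48.6% of all genes were below 0. Without pool 2, 1 of the 37 was called (3.61% of 16025 genes), USP18, with 7 at an unadjusted p below 0.05 (17.4% of all genes). There 25 had a log2 fold change below 0 (49.8% of all genes), and in 13 pools 1 and 3 did not overlap the controls (35.3%).

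Among the sensors, 5 of 8 had a log2 fold change below 0. OAS2, which makes the 2′-5′ oligoadenylates that activate RNase L, was at 5.26, 5.31 and 5.22 CPM in the control libraries and at 3.92, 3.88 and 3.57 in pools 1 to 3. Every pool was below every control library, with a log2 fold change of -0.47 (SE 0.12, edgeR adjusted p = 0.16). Its neighbour OAS3 was at 63.9, 62.7 and 63.6 CPM and at 51.6, 56.5 and 59.6 in the pools. The groups did not overlap here either, and the log2 fold change was -0.18 (SE 0.07, edgeR adjusted p = 0.318). OAS1, which lies beside both on chromosome 12, was low, at 0.757, 0.571 and 0.858 CPM in the control libraries and at 0.622, 0.579 and 0.694 in the pools, with overlapping groups. In counts OASL had the highest log2 fold change of all 37 genes at 0.34 (SE 0.36), from 0.558, 0.571 and 0.41 CPM in the control libraries and 0.476, 0.951 and 0.555 in the pools. Only pool 2 was above the controls, at 23 counts, and without it the log2 fold change was 0.01. IFIH1 and DDX60, a helicase that promotes RNA sensing, had overlapping groups, with log2 fold changes of -0.06 and -0.02. With RSEM's effective lengths, the average transcript length per gene and library, as offsets these were -0.16 and -0.27, and that of OAS1 was -0.43 in place of -0.21.

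MAVS, the mitochondrial adaptor of RIG-I and MDA5, was at 217, 211 and 209.9 CPM in the control libraries and at 181, 184 and 187 in pools 1 to 3. The groups were separate and the spread within each small, but the difference was modest, with a log2 fold change of -0.21 (SE 0.05, edgeR adjusted p = 0.162). TRIM25, the ubiquitin ligase associated with RIG-I signalling, was at 91.7, 94.4 and 91.7 CPM and at 91.6, 87.8 and 92.8 in the pools, which overlapped. Of the 4 transcription factors, IRF3 was the most abundant, at 34.6, 36.3 and 35.3 CPM in the control libraries and 37.0, 32.1 and 38.2 in the pools. Its log2 fold change was 0.02 (SE 0.08), and those of IRF1, IRF7 and IRF9 lay between -0.16 and 0.01, with overlapping groups in all 4.

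Of the 15 effectors tested, 8 had a log2 fold change below 0 and 7 above. In counts MX2 had the lowest of all 37 genes at -0.72 (SE 0.38, edgeR adjusted p = 0.439), and it rested on 13 to 17 counts per control library and 10, 12 and 6 in pools 1 to 3. At these counts the groups overlapped in CPM (0.485 to 0.694 against 0.208 to 0.496). The value of MX2 was -0.43 without pool 3 and -1.01 without pool 2. It was -0.23 with the effective lengths as offsets, where OAS2 (-0.56) and USP18 (-0.48) were among several genes with lower values. ISG20, an exonuclease that degrades RNA, was at 0.917, 0.612 and 0.41 CPM in the control libraries and 0.878, 0.62 and 0.867 in the pools, which overlapped. Its log2 fold change was 0.31 (SE 0.34, edgeR adjusted p = 0.725), and it was 0.05 without control replicate 3 and 0.64 without control replicate 1. With the effective lengths as offsets it was 1.03, above the 0.57 of OASL, and not called (0.392). IFI6, which protects cells from apoptosis, was the one gene of the 37 higher in every pool than in every control library (9.97% of all genes). It was at 18.4 to 19.0 CPM in the control libraries and at 19.8 to 20.9 in the pools. Its log2 fold change was 0.11 (SE 0.07, edgeR adjusted p = 0.534). The IFIT proteins bind viral RNA, and none of their 4 genes on chromosome 10 passed the test: the log2 fold changes were 0.05 for IFIT1, 0.12 for IFIT2, -0.25 for IFIT3 and 0.12 for IFIT5. That of IFIT3 was -0.08 without pool 1 and -0.42 without pool 2, and that of IFIT5 was 0.02 without control replicate 3 and 0.23 without control replicate 1. IFIT5 was at 15.2, 13.02 and 11.4 CPM in the control libraries and at 15.0, 14.3 and 13.7 in the pools. IFI27, the most abundant gene of the set, differed by 0.08 (SE 0.08), with overlapping groups, and by 0.03 without pool 3 and 0.14 without pool 2.

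USP18 removes ISG15 from proteins and dampens signalling at the interferon receptor. It was at 5.94, 5.75 and 5.34 CPM in the control libraries and at 3.62, 4.55 and 3.85 in pools 1 to 3, a mean of 5.68 ± 0.309 against 4.01 ± 0.481 (SD, n = 3 each). All pools were below all control libraries, with a log2 fold change of -0.51 (SE 0.13, edgeR adjusted p = 0.171). Without pool 2 it was -0.60 with an edgeR adjusted p of 0.0463, the only setting that called any of the 37 genes between the groups. USP41, a near-identical copy with which reads could be shared, had at most 3.85 expected counts in a library. For USP18, OAS2, OAS3, MAVS and IFI6 an exact two-sided permutation test over the 6 libraries gave p = 0.1, the smallest that 3 against 3 allows. Groups that do not overlap always give this value, so it adds nothing to that observation. ISG15 itself was at 24.3, 22.2 and 21.2 CPM in the control libraries and at 20.9, 17.6 and 22.0 in the pools, which overlapped (log2 fold change -0.16, SE 0.10, and -0.08 without pool 2). HERC5, the main ligase for ISG15, was at 1.16, 1.10 and 1.49 CPM and at 1.57, 1.24 and 1.42 in the pools, also overlapping.

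PARP14, an ADP-ribosyltransferase, was at 43.5, 40.3 and 38.2 CPM in the control libraries and at 32.2, 39.4 and 34.1 in the pools. Pool 2 lay within the control range, and the log2 fold change was -0.21 (SE 0.09, edgeR adjusted p = 0.37). DTX3L and PARP9, which form a complex and whose genes overlap on opposite strands, had log2 fold changes of -0.01 and -0.02. DTX3L was at 46.0, 49.6 and 45.7 CPM in the control libraries and at 43.4, 50.4 and 47.0 in the pools. ADAR was at 266, 269 and 255 CPM and at 276, 260.0 and 277 in the pools, with overlapping groups and a log2 fold change of 0.04 (SE 0.06).

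**Figure D2:**
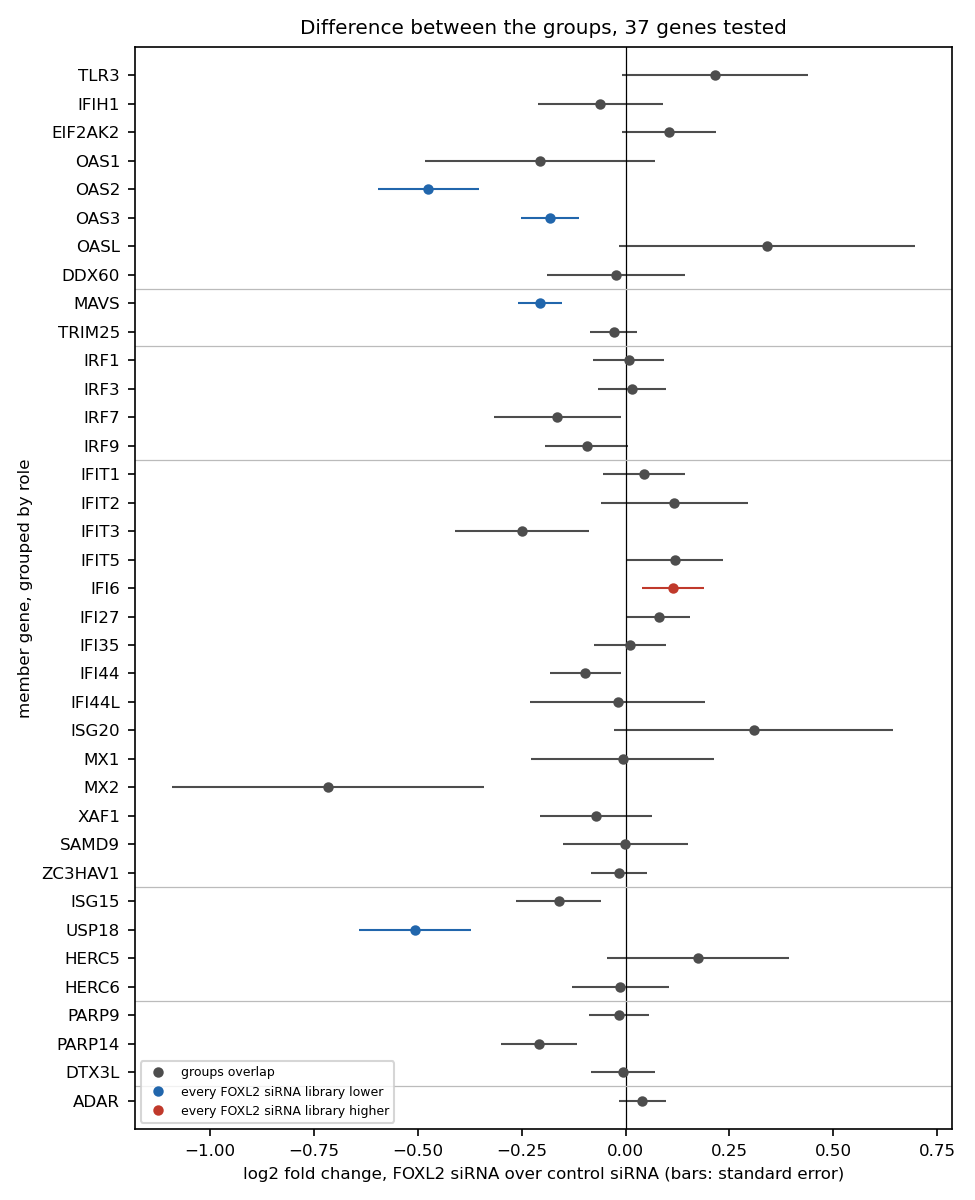
Log2 fold change of FOXL2 siRNA over control siRNA (x axis, bars show the standard error) for the 37 genes tested, grouped by role. USP18, OAS2, OAS3 and MAVS, in blue, were lower in every FOXL2 siRNA library, and IFI6, in red, was higher in every one; none had an adjusted p below 0.05.

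The pools were compared with each other by an F test in which each FOXL2 siRNA library had its own level and the spread came from the 3 control libraries. A pool is 1 library, so that pool, transfection and library preparation cannot be told apart, and a single library is assumed to vary like the controls. Between the pools, 2 of the 37 genes had an adjusted p below 0.05, EIF2AK2 and IFI44L, where 6.99% of all genes did. At an unadjusted p below 0.05 there were 5 (22.2% of all genes). The range over the 3 pools was larger than that over the 3 control libraries for 26 of the 37, and for 66.8% of all genes. Without pool 2, pools 1 and 3 differed in 0 of the 37 genes (0.53% of all genes) by edgeR, and in 3 at an unadjusted p below 0.05 (9.91% of all genes). Leaving out control replicate 3 instead raised the number between the pools to 12, where 33.0% of all genes passed, and leaving out control replicate 1 raised it to 5 (9.7% of all genes). SAMD9, an interferon-induced antiviral protein, was among the genes called with any 1 control library left out, though not with all 3 (adjusted p = 0.123), at 67.0, 70.2 and 53.1 CPM in the control libraries and 50.5, 75.8 and 64.0 in pools 1 to 3.

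EIF2AK2 (PKR, which halts translation when it binds double-stranded RNA; chr2:37099210-37157065, minus strand) was at 72.5, 73.3 and 66.1 CPM in the control libraries and at 70.6, 90.7 and 66.6 in pools 1 to 3. Pool 2 alone was above the controls, with an edgeR adjusted p of 0.0359 between pools (0.0461 by DESeq2). The TPM of the gene did not follow: it was 27.0, 26.5 and 27.6 in the control libraries and 27.2, 25.4 and 27.7 in the pools, so that pool 2 was the lowest of the 6. The effective length that RSEM estimated for EIF2AK2, an average over its transcripts, was 5628 bases in pool 2 and between 3479 and 4121 in the other 5 libraries. The counts of pool 2 were thus assigned to longer transcripts. With the effective lengths as offsets the adjusted p between pools was 0.616. Exons of EIF2AK2 overlap those of GPATCH11 on the opposite strand. The libraries were directional, but the sources used here do not give the strand setting of the counting. GPATCH11 had 512, 513 and 531 expected counts in the control libraries and 476, 531 and 551 in pools 1 to 3. These counts are not scaled to library size and cannot be set against the CPM of EIF2AK2. Pool 2 was the smallest library, with 23843192 expected counts, and pool 3 the largest, with 28791954. Whether reads were shared between the 2 genes was not tested.

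IFI44L, an interferon-induced gene beside IFI44 on chromosome 1, was at 12.4, 11.3 and 10.8 CPM in the control libraries and at 7.83, 15.5 and 10.9 in pools 1 to 3. Pool 1 was below all controls and pool 2 above them, with an edgeR adjusted p of 0.0159 between pools (0.0591 by DESeq2). The effective length was 1626 bases in pool 1 and 2195 to 2525 in the others, and the TPM of pool 1 (7.05) lay within the control range of 6.22 to 7.65, while pool 2 stayed the highest at 10.6. With the effective lengths as offsets the adjusted p was 0.328. In that fit edgeR called 0 of the 37 genes between pools (0.913% of all genes), with 4 at an unadjusted p below 0.05 (13.7%).

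**Figure D3:**
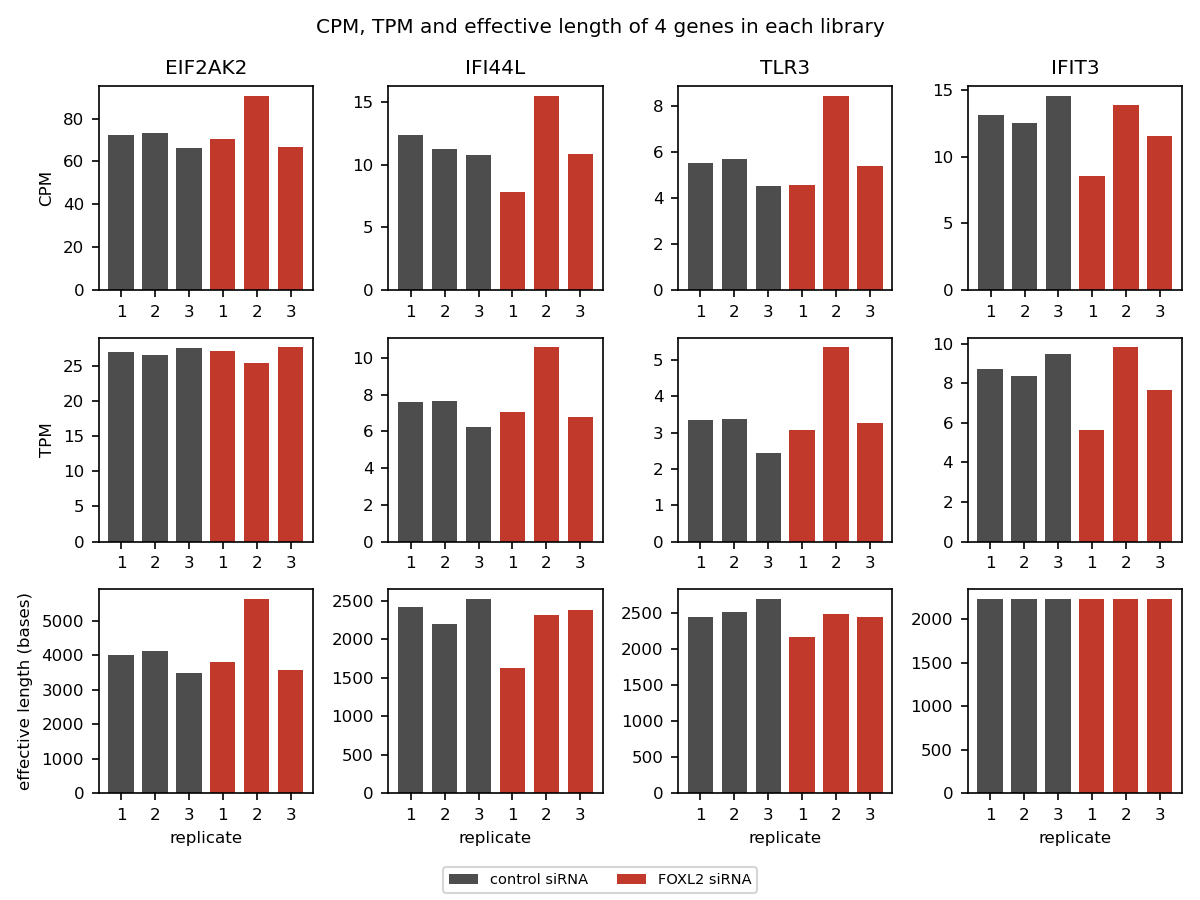
CPM (top), TPM (middle) and RSEM's effective length in bases (bottom) of EIF2AK2, IFI44L, TLR3 and IFIT3, as 1 bar per library, control siRNA in grey and FOXL2 siRNA in red. For EIF2AK2 pool 2 is the highest in CPM and in length (5628 bases) and the lowest in TPM, whereas the lengths of IFIT3 are alike in all 6 libraries.

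Against the 3 control libraries, which the 3 pools share, pool 1 had 2 genes with an adjusted p below 0.05 (6.04% of all genes), pool 2 had 2 (11.8%) and pool 3 had 0 (2.49%), with 6 at an unadjusted p below 0.05 (14.1% of all genes). In pool 1, IFIT3 and OAS3 were lower, though DESeq2 called neither. OAS3 also lost its call in edgeR without control replicate 1 or 2. IFIT3, a partner of IFIT1, was at 13.1, 12.6 and 14.6 CPM in the control libraries and at 8.56, 13.9 and 11.6 in pools 1 to 3, with a log2 fold change of -0.65 in pool 1 (SE 0.14, edgeR adjusted p = 0.0247). Its effective length was between 2229 and 2237 bases throughout, and its TPM, 5.63 in pool 1 against 8.39 to 9.47 in the controls, was also the lowest there. OAS3 had a log2 fold change of -0.30 in pool 1 (SE 0.07, edgeR adjusted p = 0.0341), and of -0.17 and -0.09 in pools 2 and 3. In pool 2, TLR3 and EIF2AK2 were higher in counts, and DESeq2 called EIF2AK2 but not TLR3. TLR3 was at 5.50, 5.67 and 4.51 CPM in the control libraries and at 4.54, 8.43 and 5.38 in the pools, with a log2 fold change of 0.69 in pool 2 (SE 0.18, edgeR adjusted p = 0.0345). In TPM it was also the highest there, 5.35 against 2.43 to 3.37 in the other 5 libraries. With the effective lengths as offsets these pool values were -0.63 for IFIT3 (adjusted p = 0.111), -0.36 for OAS3 (0.0810) and 0.79 for TLR3 (0.131), while that of EIF2AK2 turned to -0.12 (0.477). None of the 4 was called in that fit, in which 1.98% of all genes passed in pool 1 and 2.4% in pool 2.

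Over the whole set, pool 1 was the lowest of the 3 pools for 17 of the 37 genes (31.6% of all genes) and below every control library for 17 (31.9%). Pool 2 was the highest pool for 18 (38.1%). Pool 1 was above every control library for 7 of the 37 (32.3%). Of 65 further pathway genes tested, described below, pool 1 was the lowest pool for 25. It was below every control library for 24 of these and above for 20, with a median difference from the control mean of -0.01 in log2 CPM. The median difference of the 37 genes from the control mean was -0.11 in log2 CPM in pool 1, 0.01 in pool 2 and -0.003 in pool 3. With a control library left out these medians ranged from -0.14 to -0.08 in pool 1, from -0.03 to 0.01 in pool 2 and from -0.06 to 0.02 in pool 3, so that only that of pool 1 kept its sign. The control libraries themselves had medians of 0.04, 0.03 and -0.08. Each control library is part of the mean it is set against, which makes its difference smaller, whereas the pools are not. Whether pool 1 lay outside the spread of the controls therefore cannot be read from these values. The medians of all genes were between -0.001 and 0.01 in the 6 libraries. By role, the medians in pools 1 to 3 were -0.19, 0.11 and -0.07 for the sensors and -0.05, 0.06 and 0.02 for the effectors. Pool 2 was the lowest of the pools for the transcription factors (-0.02, -0.13 and 0.04), for ISG15 conjugation (-0.11, -0.16 and -0.09) and for MAVS and TRIM25 (-0.12, -0.14 and -0.09).

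**Figure D4:**
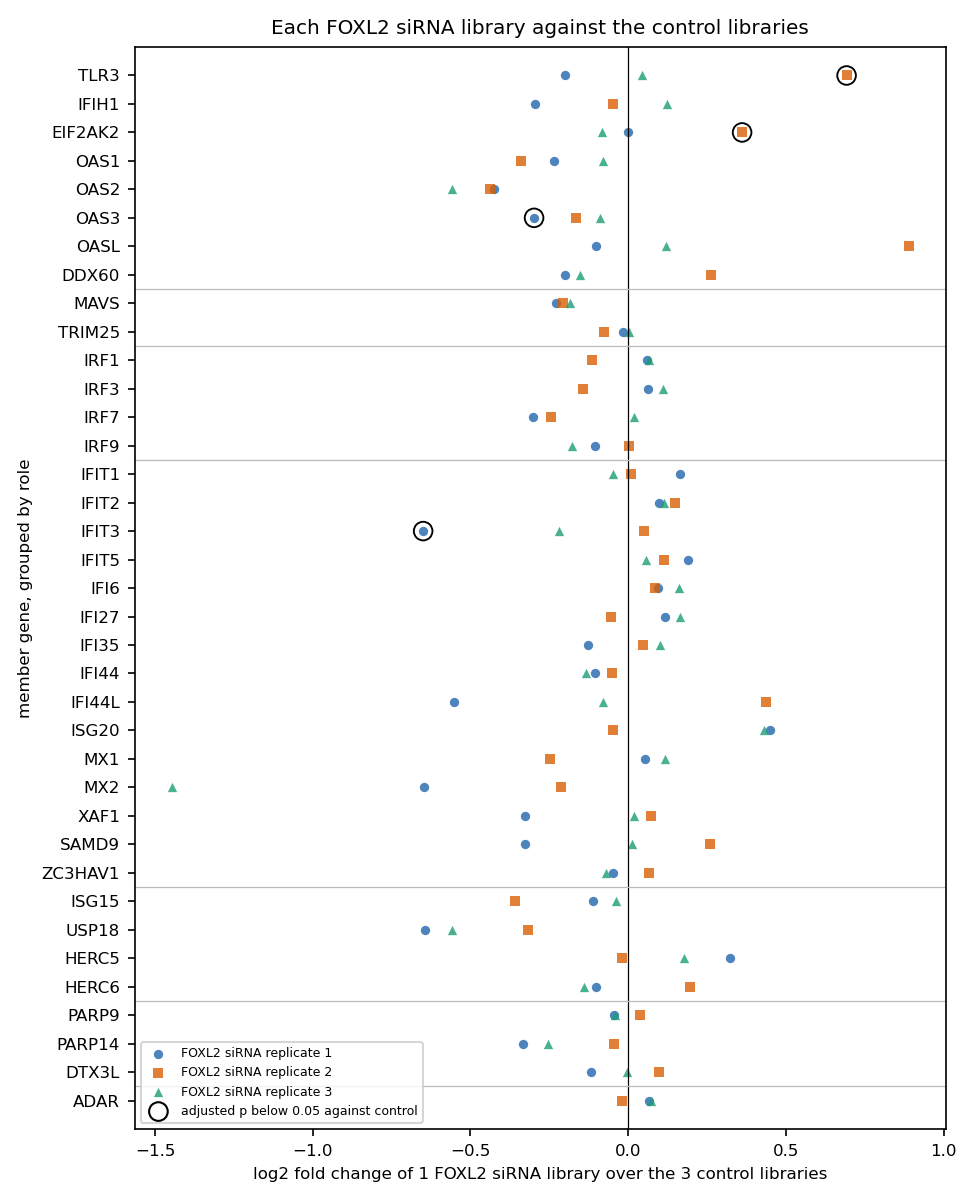
Log2 fold change of each FOXL2 siRNA library over the 3 control libraries (x axis) for the 37 genes tested, grouped by role, with pool 1 as blue circles, pool 2 as orange squares and pool 3 as green triangles. Rings mark an adjusted p below 0.05: OAS3 and IFIT3 in pool 1, TLR3 and EIF2AK2 in pool 2.

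Another 85 genes of the pathway, listed by role, were also compared between the groups: 65 passed the filter and 0 had an adjusted p below 0.05 (0.255% of all genes), with 5 at an unadjusted p below 0.05 (13.5%). Without pool 2 edgeR called 1, MYD88, at a log2 fold change of -0.59 (adjusted p = 0.0304), where 3.61% of all genes passed. Of the 10 other ligands and chemokines, among them IFNA1, IFNL1 to IFNL3, IFNG, CXCL9 and CXCL11, 9 were at 0 counts in every library, as were the strongly inducible RSAD2 and CMPK2. The highest genes of 5 other roles were IFITM3, which blocks virus entry (527 TPM), JAK1 (70.6), IFI16, a DNA sensor (63.0), TANK, a binding partner of TBK1 (48.3), and TRIM27 (41.2). Their log2 fold changes were 0.02, -0.17, -0.08, 0.08 and -0.01. RIGI differed by 0.12 (SE 0.10, edgeR adjusted p = 0.65).

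Between the pools, 4 of these 65 genes had an adjusted p below 0.05, where 6.99% of all genes did. IRF2, a repressor of interferon genes, was at 16.2, 13.8 and 15.9 CPM in the control libraries and at 7.58, 16.4 and 12.003 in pools 1 to 3 (edgeR adjusted p = 0.0112). MYD88, the adaptor of most Toll-like receptors though not of TLR3, was at 21.3, 21.8 and 19.5 CPM and at 11.97, 20.9 and 15.7 in the pools (0.0189). APOL6 was at 40.3, 39.8 and 34.6 CPM and at 26.2, 48.5 and 36.1 in the pools (0.00737). In these 3 genes pool 1 was below every control library, whereas LY6E, a surface protein, was lowest in pool 2, at 68.4, 66.6 and 69.0 CPM in the control libraries and 71.2, 57.2 and 74.9 in the pools (0.0379). DESeq2 called IRF2 and APOL6 between the pools and not MYD88 or LY6E (4.87% of all genes passed), and with effective lengths as offsets edgeR called none of the 4 (adjusted p 0.0655 to 0.414). Without pool 2, pools 1 and 3 differed in 0 of the 65 by edgeR (0.53% of all genes), with 10 at an unadjusted p below 0.05 (9.91%). Against control, 6 of the 65 passed in pool 1 (6.04% of all genes), all lower: IRF2, MYD88, APOL6, DHX58 (LGP2, a relative of RIG-I), JAK1 and EPSTI1. In pool 2 (11.8% of all genes) APOL6 was higher and LY6E and UBE2L6 lower, and in pool 3 (2.49%) edgeR called 0, with 7 at an unadjusted p below 0.05 (14.1%). With effective lengths as offsets none of these genes was called in pools 1 and 2, with adjusted p from 0.0507 for MYD88 to 0.286 for LY6E. Their directions did not turn: in pool 1 the log2 fold change of MYD88 was -0.76 in place of -0.80, that of DHX58 -1.17 in place of -0.98 and that of IRF2 -0.72 in place of -1.02. That fit called 2 other genes of the 65 in pool 2 (2.4% of all genes), both higher: IFNAR1, a chain of the type I interferon receptor, at 0.50 (SE 0.08, edgeR adjusted p = 0.0251), and TBK1, the kinase that activates IRF3, at 0.52 (SE 0.11, edgeR adjusted p = 0.0486).

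The labelled cell type was checked on 11 granulosa markers. NR5A1 (36.6 TPM over all libraries), AMH, INHBA and STAR were expressed. AMH was at 25.05, 31.9 and 28.3 TPM in the control libraries and at 19.2, 29.8 and 26.6 in pools 1 to 3. INHBA was at 34.6, 37.9 and 29.6 TPM and at 23.6, 30.3 and 30.5 in the pools. Both were lowest in pool 1, whereas NR5A1 and STAR were highest there, at 39.2 and 17.6 TPM. WT1 and FSHR were at 0 in every library, and GATA4, CYP19A1, AMHR2 and INHA were near 0. Of 8 leukocyte markers 3 were at 0 and PTPRC was the highest at 0.727 TPM, and their sum was 1.19 ± 0.133 TPM in the control libraries and 0.8 ± 0.269 in the FOXL2 siRNA libraries. The endothelial, epithelial and oocyte lists summed to at most 2.57 TPM in a library.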

How the data were processed

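KGN cells were measured by RNA-seq in 6 libraries, grouped by the siRNA named in the labels. The authors aligned single reads with STAR 2.7.6a and estimated expression with RSEM 1.3.1, per the submitters' processing notes. Each deposited table holds expected counts, which are not normalized, with TPM and FPKM scaled by the authors' RSEM run and an effective length per gene and library. FPKM was not used. The processing notes name a mouse build, GRCm38, while the gene identifiers are human Ensembl ones, so that the build and annotation release behind these tables were not settled. Coordinates are those of GENCODE 29 (GRCh38), matched by Ensembl identifier, and of RefSeq.

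Expected counts were rounded, filtered with filterByExpr (15663 genes kept), normalized by TMM and tested across all genes in edgeR 4.0.16 (glmQLFit without the older dispersion estimate, glmQLFTest, R 4.3.3), with p-values adjusted by Benjamini and Hochberg's method over all 15663 and called below 0.05. A count of 0 was taken to allow up to 3 counts, for counting error alone. The tests were tested on simulated data. The 40 genes, the lists and the tests were chosen with earlier results of these data known.

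Genes are named where any comparison, in the fit described above, called them, for the 5 highest and 5 lowest log2 fold changes, the 3 widest ranges over the pools at 1 CPM or more, and the highest TPM in each role; further genes were chosen after their values were seen. One named gene is not reported here. Alternatives were DESeq2 1.42.0, limma 3.58.1 (voom, and log2 TPM with 1 or 0.5 added), DESeq2's size factors, other filters, effective lengths as offsets, a replicate block and each library left out. The older quasi-dispersion, whose results were seen first, and pool 1 against pool 3 without pool 2 were added after seeing the data. Plots were made with matplotlib 3.10.9.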

Additional observations from a re-analysis of the deposited data

How the results depend on the processing

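Between FOXL2 siRNA and control siRNA, 0 of the 40 genes and 0 of the 85 further pathway genes were called in nearly every setting run. The exception was without FOXL2 siRNA replicate 2, where 1 of each was called (leave-one-out range 0 to 1) and 3.61% of all genes passed. In the other settings the share of all genes ran from 0.0124% without control replicate 1 to 2.13% with DESeq2. Where so few of all genes passed, a count of 0 says little about these lists. The titles number the libraries alike in both groups, and the sources used here do not say whether same-numbered libraries were paired. The deviations of same-numbered libraries from their group means correlated by -0.07, 0.02 and 0.09. With 3 libraries in a group this cannot decide whether they were paired. With a replicate block edgeR called 0 of the 40 genes, and 11 of all genes (0.0702%) in place of 40 (0.255%). FOXL2 was lower throughout, with log2 fold changes of -1.36 (adjusted p = 0.0513) and -1.57 (0.0692) with limma on log2(TPM + 1) and log2(TPM + 0.5) and past the threshold in the other settings.

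The share of all genes called is given in brackets. The 2 genes called between the pools (6.99%) became 1 with DESeq2 (4.87%), 0 with effective lengths as offsets (0.913%), 0 with no filter on low counts (0.91%), 0 for pool 1 against pool 3 without pool 2 (0.53%), and 3 to 12 with a control library left out (8.4% to 33.0%). Against control, pool 1 (2 genes, 6.04%) gave 0 with DESeq2 (3.82%), offsets (1.98%) or no filter (1.25%), 3 with the older quasi-dispersion (5.8%), 4 with a mean of at least 50 counts (8.5%), and 1 to 9 with a control library left out (5.39% to 23.2%). Pool 2 (2 genes, 11.8%) gave 1 with DESeq2 (6.51%), 0 with offsets (2.4%) or no filter (2.57%), 4 with at least 50 counts (16.1%), and 2 to 7 with a control library left out (10.7% to 27.6%), and pool 3 (0 genes, 2.49%) likewise gave 0 to 4 (2.33% to 16.9%). The highest counts and shares all came without control replicate 3, where the spread came from control replicates 1 and 2 alone. These were the most alike pair of libraries within a group. The chi-square of their counts over genes, per degree of freedom, was 2.30, against 7.31 to 25.0 for the other pairs. The cause of these shifts was not tested.

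Some uncalled log2 fold changes near 0 turned sign. With offsets, limma on log2(TPM + 0.5) and limma on log2(TPM + 1), in that order, they were -0.0182, -0.0157 and -0.0154 for EIF2AK2, 0.179, 0.151 and 0.143 for IFI44L, and 0.0215, 0.0216 and 0.0210 for DTX3L. The median of the 37 genes tested between the groups ranged from -0.0717 to 0.00743 with a library left out, and the median of pool 2 against the control mean was 0.0495 in log2(TPM + 1). With a library left out the single genes ranged from -0.0752 to 0.388 for TLR3, from -0.0461 to 0.188 for EIF2AK2, from -0.299 to 0.191 for IFI44L, from -0.0633 to 0.0470 for DTX3L and from -0.0375 to 0.0824 for IRF3.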
